A study of Mus musculus with 16 samples.

Results

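The genes of dopamine signalling in the mouse retina are described here by their abundance: 10 genes that make dopamine, load and clear it, receive it, or act downstream of its receptors. They were chosen by symbol as Th and Ddc (synthesis), Slc18a2 and Slc6a3 (transport), Drd1a, Drd2, Drd4 and Drd5 (receptors), Adcy1 (an adenylate cyclase) and Aanat (melatonin synthesis), and all 10 were among the 25905 genes of the deposited table. The libraries came from the right retinas of wild type male C57BL/6 mice, 8 of them flown aboard the International Space Station and 8 kept on the ground under matched conditions, all labelled 10 weeks old, in a study that asked whether spaceflight alters retinal gene expression. The flown mice were killed after their return to Earth, not in orbit. Each stranded library was built from 100 ng of total RNA of a single retina. For each gene the table gives the authors' mean over all 16 libraries of the counts after normalization for depth, here the mean normalized count. Column names of the count tables are codes that could not be tied to any labelled sample, so values per mouse, the spread between mice and the difference between flight and ground were not analysed here, and every level below is a mean that pools the 2 groups.

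Dopamine is the light-linked transmitter of the retina. A sparse class of amacrine cells makes it from tyrosine with tyrosine hydroxylase (Th) and aromatic amino acid decarboxylase (Ddc), fills vesicles through Slc18a2 and takes it back up through Slc6a3. Receptors of the D1 class (Drd1a, Drd5) raise cyclic AMP, while those of the D2 class (Drd2, Drd3, Drd4) lower it. In rods and cones the D2-class receptor is Drd4, and Adcy1 is the calcium-stimulated cyclase that supplies cyclic AMP. There Aanat is the rhythmic enzyme of melatonin synthesis. In animals that make melatonin, this night-time product stands opposite to dopamine in the daily cycle. Melatonin was not measured here, and whether mice of this strain make it was not tested.

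The level of each gene was expressed per kilobase of its longest coding transcript, so that genes of different length can be set side by side. Lengths and promoters are from assembly GRCm38, while the authors mapped the reads to the NCBI mouse build before it. Intervals are exact 95% Poisson intervals of the normalized count summed over the 16 libraries, rounded to a whole number, and assume size factors near 1. They cover counting error only, since reads without molecular identifiers are not independent molecules and the spread between mice is not included. In whole retina a lower level can come from fewer cells of a type or from less RNA in each cell, and these cannot be told apart.

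Drd4 had the highest level of the 10 genes, at 651 mean normalized counts per kilobase (interval 644 to 659). Its mean normalized count was 1822, above that of 97.7% of the genes in the table. Adcy1 followed at 371 per kilobase (368 to 374), or 0.570 of the Drd4 level. By count alone Adcy1 was the more abundant, with a mean normalized count of 4548 that 141 genes exceeded, on a transcript of 12259 bases against 2799 for Drd4. With the coding sequence as the length, Drd4 had 1570 counts per kilobase and Adcy1 1356. In these pooled means the receptor stood first and the cyclase second on both length scales, and leaving out length turned their order round. The shortest and the listed transcript could not change this order, since each gene has the same transcript length in both as in the main setting. Their order within the flight or the ground group was not analysed here.

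**Figure D1:**
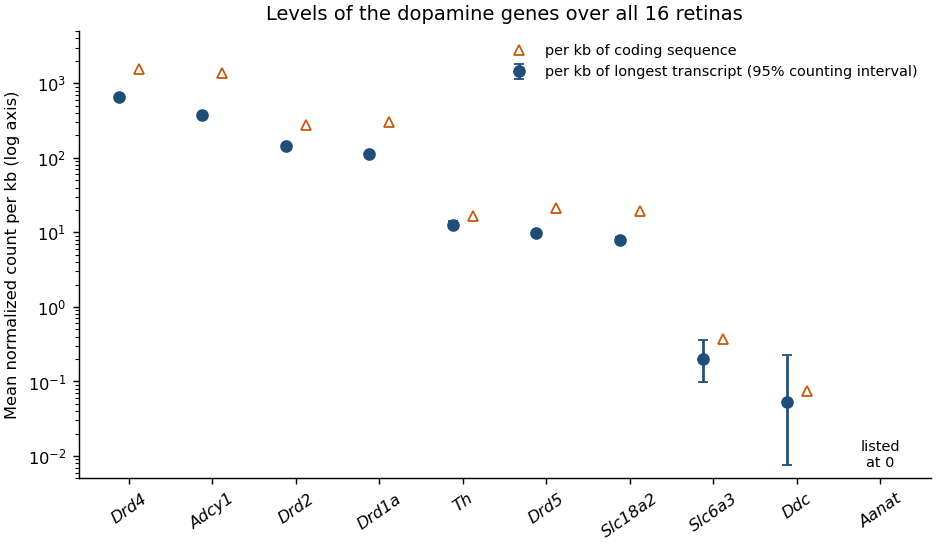
Level of each of the 10 genes, as the authors' mean normalized count over all 16 libraries per kilobase, on a log axis. Circles use the longest coding transcript, with bars for the 95% counting interval, and triangles use the coding sequence. Drd4 and Adcy1 stand highest on both scales, Th, Drd5 and Slc18a2 lie between 8.0 and 12.7 per kilobase of transcript, and Aanat is listed at 0.

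Among the 5 dopamine receptors, Drd4 made up 70.8% of the summed level per kilobase. Drd2, the receptor that the dopaminergic cells themselves carry, was at 146 per kilobase (143 to 150). Drd1a, the receptor of horizontal and several bipolar cell types and listed under its older symbol, was at 112 per kilobase (109 to 115). The Drd4 level was 4.45 times that of Drd2 and 5.81 times that of Drd1a. Which of Drd2 and Drd1a is the higher turned on the length used: Drd2 was at 1.31 times Drd1a per kilobase of transcript and at 0.935 of it per kilobase of coding sequence. Their order is therefore not settled by these values.

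Drd5, the other receptor of the D1 class, was at 9.70 per kilobase (8.86 to 10.6), and Drd1a was at 11.5 times its level. Drd5 has a single exon, and in the GENCODE annotation of assembly GRCm38 an antisense gene, Gm26560, shares 1531 of its bases. Whether the counting used strand is not given in the sources used here, so the reads of the 2 genes may not be separated. Drd3, a receptor outside the 10 genes that is found mainly in the brain, had a mean normalized count of 0.0722, which sums to 1.16 normalized counts over 16 libraries. Receptors of the D2 class made up 86.8% of the summed receptor level and those of the D1 class 13.2%.

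Th and Slc18a2, which mark the dopamine-making cell, lay below Drd4, Drd2 and Drd1a and close to Drd5. Th, the rate-limiting enzyme, was at 12.7 per kilobase (11.5 to 14), with a mean normalized count of 24.8. The Drd4 level was 51.2 times that of Th, and 94.5 times per kilobase of coding sequence. Slc18a2, the vesicular monoamine transporter, was at 8.0 per kilobase (7.31 to 8.75), with a mean normalized count of 30.3. An antisense gene, Gm29261, shares 99 of its 3785 bases, with the same limit as for Drd5. Th was at 1.59 times Slc18a2 per kilobase of transcript and at 0.850 of it per kilobase of coding sequence, so these 2 genes and Drd5 form a group whose inner order depends on the length. Gad1, which makes the GABA that most amacrine cells release, was at 720 per kilobase, 56.6 times the Th level. The ratio was 81.8 per kilobase of coding sequence and 174 with the shortest annotated transcript of each. That Gad1 transcript has 1021 bases, fewer than the 1779 of the longest Gad1 coding sequence.

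Slc6a3, the plasma membrane dopamine transporter, was close to the limit of detection. Its mean normalized count was 0.698, which sums to 11.2 normalized counts over all libraries, and its level was 0.202 per kilobase (0.0993 to 0.356). The vesicular transporter was at 39.6 times that level. Slc6a3 is listed under 1 transcript of 3456 bases, and no other annotated gene overlaps its exons. The other plasma membrane monoamine transporters lay within its interval, Slc6a2 (noradrenaline) at 0.273 and Slc6a4 (serotonin) at 0.210 per kilobase. Slc18a3, the vesicular acetylcholine transporter of starburst amacrine cells, was the highest of the 6 transporters at 30.8 per kilobase.

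Ddc and Aanat were at or near 0. Ddc, which turns L-DOPA into dopamine, had a mean normalized count of 0.108, a sum of 1.73 normalized counts over 16 libraries. Aanat was listed at 0, as 1 of 6238 genes of the table (24.1%). Both differ from the other 8 genes in how many transcripts the count table lists for them. The count table holds 1 row for each RefSeq transcript, 31616 rows for 25905 symbols, and it lists 2 rows for Ddc (NM_001190448.1 and NM_016672.4) and 2 for Aanat (NM_009591.3 and rna20863), against 1 row for each of the remaining genes. It also has a row for reads set aside as ambiguous, a class that HTSeq gives to a read that lies on more than 1 of the features it counts.

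The 2 Ddc transcripts begin at separate start sites and share most of their bases. Of the 2089 exonic bases they cover together in GENCODE M21, 206 (9.86%) belong to only 1 of them. The sequences around the 2 start sites are shown, each with 250 bases before and 50 after the start in the RefSeq annotation of GRCm38.p6, minus strand, 5′ to 3′. Most of each window lies before the start, outside the transcript that begins there, so the windows do not display the unshared bases as such. The first belongs to NM_001190448.1 (chr11:11898095-11898394) and the second to NM_016672.4 (chr11:11890359-11890658), and neither holds a match in capitals to the motifs searched further on.
Ddc upstream start: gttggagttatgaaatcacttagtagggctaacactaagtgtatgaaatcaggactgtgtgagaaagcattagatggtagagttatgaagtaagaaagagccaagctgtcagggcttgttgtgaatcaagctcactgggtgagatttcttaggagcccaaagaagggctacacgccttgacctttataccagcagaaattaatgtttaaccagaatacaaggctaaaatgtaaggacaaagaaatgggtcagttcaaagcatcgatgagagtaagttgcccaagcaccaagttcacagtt
Ddc downstream start: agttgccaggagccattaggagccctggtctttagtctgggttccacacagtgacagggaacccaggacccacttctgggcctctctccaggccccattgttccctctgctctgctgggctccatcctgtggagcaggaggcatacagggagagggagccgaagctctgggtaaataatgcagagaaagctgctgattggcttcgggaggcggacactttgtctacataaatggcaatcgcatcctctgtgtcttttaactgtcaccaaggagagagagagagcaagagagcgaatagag
The 2 windows differed in base composition, with 41.3% G and C in the upstream one and 54.3% in the downstream one.

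Over the whole table, genes listed under several transcripts had lower values. The median mean normalized count was 12.9 for the 22086 genes with 1 listed transcript and 0.652 for the 2704 genes with 2. Of the genes with 1 transcript, 35.6% had a mean normalized count under 1, and of the 3794 genes with 2 or more, 52.2% did. Among the 1774 genes with 2 transcripts that could both be paired with GENCODE M21, the median was 0.446 where at most 10% of the bases belonged to only 1 transcript, the class that holds Ddc, and 20.9 where over 50% did. Genes differ in much besides their transcript number, and the part of the counting in the values of Ddc and Aanat was not tested. All libraries came from mice of 1 strain, so the part of the strain in the Aanat value could not be tested. Ddc and Aanat are therefore given as the table lists them, with no order read between them and the other genes.

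**Figure D2:**
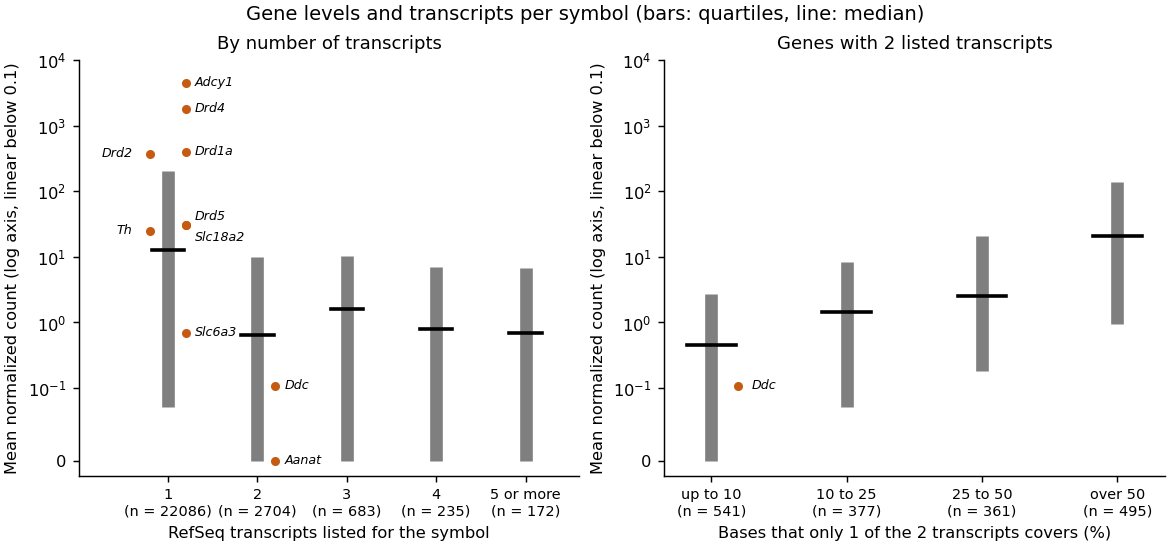
Mean normalized count of all genes by the number of RefSeq transcripts the count table lists for the symbol (left), and, for genes with 2 listed transcripts, by the percentage of their bases that only 1 of the 2 covers (right). Grey bars span the quartiles, black lines are medians and orange points are the dopamine genes, on an axis that is logarithmic above 0.1. The median falls from 12.9 with 1 transcript to 0.652 with 2, and rises from 0.446 to 20.9 with the percentage of unshared bases.

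Adcy1 was the leading member of its family. Of the summed level per kilobase of the 10 adenylate cyclases, Adcy1 made up 47.5%, Adcy6, a calcium-inhibited cyclase, 23.8% and Adcy2 13.8%. Adcy1 was at 1.99 times the Adcy6 level per kilobase of transcript at 4.23 times per kilobase of coding sequence, and at 1.2 times with the shortest annotated transcript of each, so the size of its lead over Adcy6 depends on the length. Adcy8, also stimulated by calcium and calmodulin, was at 34.3 per kilobase, near Adcy5 (40.9) and Adcy9 (37.2). Adcy4 was at 3.37 and Adcy10, the soluble cyclase, at 0.360 per kilobase. Adcy3 and Adcy7 had mean normalized counts of 0.181 and 0.0722, and are listed under 3 and 4 transcripts. Over the 8 cyclases with 1 listed transcript the Adcy1 share was 47.5% as well. It could hardly differ, since Adcy3 and Adcy7 as listed held 0.00468% and 0.00155% of the summed level. The share therefore says nothing of the part of the transcript number in their values, which was not tested.

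**Figure D3:**
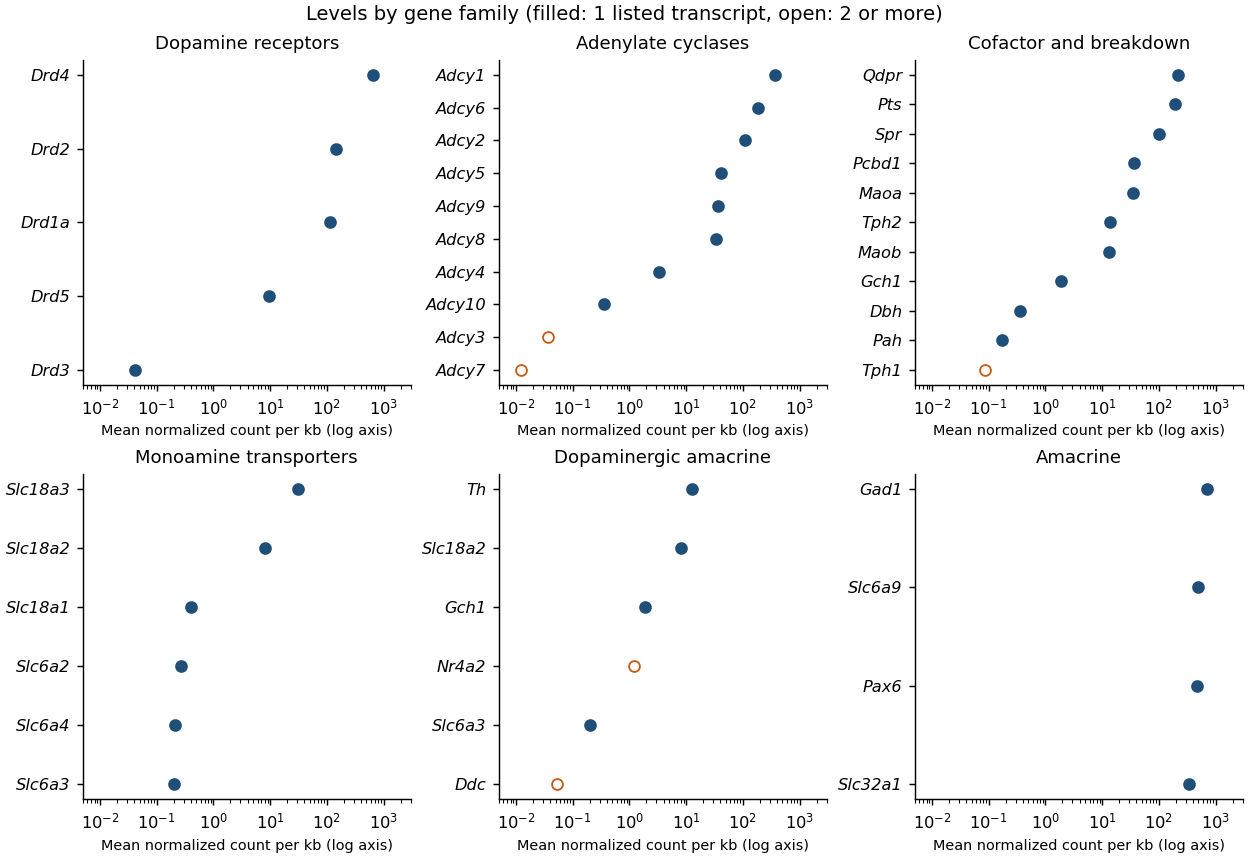
Level per kilobase of longest coding transcript, on a log axis, for each gene of 6 families, with filled points for genes listed under 1 RefSeq transcript and open points for genes listed under 2 or more. Drd4 leads the dopamine receptors at 651 and Adcy1 the cyclases at 371, while the markers of dopaminergic amacrine cells reach 12.7 and those of amacrine cells as a class 338 to 720.

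Dopamine synthesis needs the cofactor tetrahydrobiopterin. Gch1, the enzyme that commits GTP to its synthesis, had a mean normalized count of 5.30 and a level of 1.91 per kilobase, so that Th was at 6.66 times Gch1, and at 2.26 times per kilobase of coding sequence. The later enzymes were higher. Pts was at 193, Spr at 99.4 and the recycling enzymes Qdpr and Pcbd1 at 215 and 36.1 per kilobase. Of the breakdown enzymes, Maoa was at 34.4 and Maob at 13.4 per kilobase. Dbh, which turns dopamine into noradrenaline, had a mean normalized count of 0.927. Tph2, the first enzyme of serotonin synthesis in neurons, was at 13.7 per kilobase, close to the Th level.

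Of the 5 factors known for the development or upkeep of midbrain dopamine neurons, Nr4a2 was the highest with a mean normalized count of 4.25 over 2 listed transcripts. The mean normalized count was 1.98 for Lmx1b, 0.694 for Pitx3 and 0.0579 for En1, and Foxa2 was listed at 0. Of the melatonin genes, beside Aanat at 0, Tph1 had a mean normalized count of 0.391 over 2 listed transcripts, and the melatonin receptors Mtnr1a and Mtnr1b had 2.75 and 0.303 on 1 transcript each. Asmt was not analysed here.

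The inhibitory G protein subunits to which receptors of the D2 class couple were abundant. Gnai2 was at 978, Gnaz at 357, Gnai1 at 76.4 and Gnai3 at 74.9 per kilobase. Gnao1, listed under 2 transcripts with 90.3% of their bases unshared, was at 575. Gnal, the stimulatory subunit of D1 signalling in the striatum, was at 2.21 per kilobase over 2 listed transcripts, and Gnas at 20.5 over 9. The part of the transcript number in the values of Gnal and Gnas was not tested. No order is therefore read between them and the inhibitory subunits. Rgs9, which ends the transducin signal in photoreceptors and has a second form that acts on D2 receptors in the striatum, was the highest of the list at 5894 per kilobase. The table gives 1 value over its 2 listed transcripts, so the 2 forms are not separated. Ppp1r1b, the D1-regulated phosphatase inhibitor known as DARPP-32, was at 48.2 per kilobase.

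The markers of the labelled tissue were present. Among the rod genes, the mean normalized count was 154477 for the rod transducin Gnat1 and 88.9 for the transcription factor Nrl. Mean normalized counts ran from 537 to 2800 over 6 cone genes, and from 945 to 2415 over the 4 amacrine genes analysed. They ran from 8.60 to 4239 over 6 bipolar genes, from 5.53 to 2999 over 6 ganglion cell genes and from 1.39 to 17455 over 5 genes of Müller glia, and the lowest of each of these 3 lists (Pcp2, Rbpms and Rlbp1) is listed under 2 or more transcripts. Per kilobase of transcript, Drd4 (651) was at 1.14 times the level of the cone transducin Gnat2 and also above Pde6h (90.3). It was below the other cone genes, Arr3 (692), Gnb3 (769), Opn1mw (1148) and Opn1sw (1162). Its place among the cone genes depends on the length. Pde6h has a longest transcript of 5940 bases and only 249 coding bases, so the lead of Drd4 over it rests on the transcript length. Drd4 was at 0.941 of Arr3 per kilobase of transcript and at 1.91 times Arr3 per kilobase of coding sequence. Markers of neighbouring tissue were detected too, from 1.39 to 540.04 over 6 pigment epithelium genes, led by Ttr, and from 49.1 to 898 over 5 lens genes, led by Cryaa. Of the 3 blood genes Alas2 was listed at 0 and Hbb-b1 was the highest at 10.7. The part of this tissue in the levels of the dopamine genes was not tested.

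Promoters are shown for the 2 leading genes and for the pair that marks the dopamine-making cell. The reference table held 11 promoters for 9 of the 10 genes, with 250 bases before and 50 after the start. They were searched on both strands for CACGTG (an E-box bound by clock factors), TAATCC (the core site of the photoreceptor factor CRX) and TGACGTCA (the cyclic AMP response element), and matches are in capitals. All are from RefSeq on GRCm38.p6 and run 5′ to 3′ on the strand of the gene. Drd4 lies on the plus strand at chr7:141291768-141292067, Adcy1 on the plus strand at chr11:7063183-7063482, Th on the minus strand at chr7:142899946-142900245 and Slc18a2 on the plus strand at chr19:59260628-59260927.
Drd4: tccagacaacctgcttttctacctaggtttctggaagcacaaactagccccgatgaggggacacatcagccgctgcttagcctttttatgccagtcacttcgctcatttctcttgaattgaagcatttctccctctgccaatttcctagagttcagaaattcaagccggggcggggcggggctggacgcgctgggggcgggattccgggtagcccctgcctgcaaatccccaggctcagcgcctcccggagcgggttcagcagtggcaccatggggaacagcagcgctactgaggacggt
Adcy1: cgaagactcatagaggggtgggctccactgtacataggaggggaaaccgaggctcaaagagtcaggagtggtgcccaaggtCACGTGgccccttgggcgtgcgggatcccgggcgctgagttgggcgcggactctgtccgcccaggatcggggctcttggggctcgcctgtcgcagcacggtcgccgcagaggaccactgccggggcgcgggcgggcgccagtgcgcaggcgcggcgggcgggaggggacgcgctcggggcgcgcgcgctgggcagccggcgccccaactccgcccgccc
Th: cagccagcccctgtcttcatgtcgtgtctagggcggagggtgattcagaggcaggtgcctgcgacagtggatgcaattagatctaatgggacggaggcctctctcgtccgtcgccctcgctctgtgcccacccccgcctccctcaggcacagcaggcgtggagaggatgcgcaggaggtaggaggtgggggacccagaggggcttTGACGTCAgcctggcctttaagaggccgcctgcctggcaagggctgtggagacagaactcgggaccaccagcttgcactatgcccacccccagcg
Slc18a2: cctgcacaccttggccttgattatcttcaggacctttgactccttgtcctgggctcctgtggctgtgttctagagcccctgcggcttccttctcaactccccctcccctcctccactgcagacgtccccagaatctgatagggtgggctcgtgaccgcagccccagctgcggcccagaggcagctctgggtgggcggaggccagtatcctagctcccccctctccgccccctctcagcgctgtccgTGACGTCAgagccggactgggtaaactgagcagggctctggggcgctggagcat
Th and Slc18a2 each held 1 TGACGTCA, beginning 45 bases before the start of Th and 4 bases before that of Slc18a2. This motif was in 1.79% of the 32817 mouse promoters of the table. CACGTG stood in the promoters of Adcy1 and Slc6a3, 169 and 197 bases before their starts, and in 7.15% of all promoters. TAATCC was in none of the 11 promoters and in 7.06% of all. A match is a string of letters in this window and says nothing of binding. The G and C content of the 11 promoters ran from 41.3% to 74.0%, and the median over all promoters was 52.7%.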

How the data were processed

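Retinas of 8 spaceflight and 8 ground control mice were sequenced. The authors trimmed reads with Trimmomatic, mapped them with TopHat2 and counted them with HTSeq, on the NCBI mouse build that preceded GRCm38. The authors' group comparison used DESeq2 1.22.2 in R 3.5.1. The signal value used here is deposited by the authors, the mean over all libraries of counts divided by size factors. It sums to 6995811 over genes. The authors' other columns hold their comparison (log2 fold-changes, standard errors, statistics and p-values) and were not used. The 32 columns of counts per library in 2 deposited tables match no label and were not used, so the planned comparison of the groups could not be run, and depth per library is not analysed here. From the count table only transcript IDs and symbols were read.

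Levels were divided by lengths from GENCODE M21 (GRCm38, a later build than the authors', so transcript models can differ from those counted), with older symbols matched through RefSeq. Alternatives were the coding length, the shortest basic transcript, no length and, added after seeing the data, the transcript paired with the listed RefSeq ID, ignoring its version. The members and lists were chosen with earlier results of these data known. The text names every member by rule and list genes with their values. The gene pairs, motifs, intervals and transcript counts were chosen after values were seen. Of 104 list genes, 100 were in the table. No test was made. Checks on made-up data covered only the unshared bases, the counting intervals and medians by transcript number. The interval check drew Poisson counts, so it does not cover a wider spread. Levels per kilobase, ranks, shares and the promoter search were not checked in this way. Calculations ran in Python 3.11.15 with scipy 1.17.1, numpy 2.4.6 and pandas 2.3.3, and plots were drawn with matplotlib 3.10.9.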

Additional observations from a re-analysis of the deposited data

How the results depend on the processing

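With the coding length in place of the transcript length, 5 of the 10 dopamine genes kept their rank, since Drd1a came before Drd2 and Th after Slc18a2. With no length 3 did, and Adcy1 came first. With the shortest transcript, or the one paired with the listed RefSeq ID, all 10 kept it. These 2 settings could hardly move a rank, since most genes have the same length in them as in the main setting. With the shortest transcript only Drd1a (112 to 114), Th (12.7 to 13.6) and Ddc (0.0536 to 0.0562 per kilobase) changed in level. Ddc and Aanat came last in every setting. Of the 8 genes with 1 listed transcript, 3 kept their rank with the coding length, 1 with no length and 8 in the other 2 settings. The Drd4 share of the summed receptor level was 72.3% with the coding length and 69.4% with no length. The Adcy1 share of the summed cyclase level was 67.7% with the coding length, 66.4% with no length and 41.1% with the shortest transcript. No paired analysis was possible because the columns of the count tables carry no replicate number of the labels, and for the same reason the replicate block, the other tool, the unfiltered fit and the stricter threshold planned for the comparison of flight with ground were not run. Genes near 0 are limited by counting, and the part of the transcript number in the values of Ddc and Aanat was not tested.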

Other observations

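Values of other retinal genes listed under 2 or more transcripts varied widely. Rlbp1, the retinaldehyde-binding protein of Müller glia and pigment epithelium, had a mean normalized count of 1.39, and 7.73% of the bases of its 2 transcripts belonged to only 1 of them. Rbpms, a marker of ganglion cells, had 5.53 over 3 transcripts with 13.2% unshared bases, and Pcp2, a marker of rod bipolar cells, 8.60 over 3 transcripts with 32.5%. Nrl, the rod transcription factor, had 88.9 over 2 transcripts with 3.27%. Trpm1, the channel of ON bipolar cells, had 2866 over 2 transcripts with 73.9% unshared bases. Gnb5, a G protein subunit that works with Rgs9, had 1415 over 2 transcripts with 32.5% unshared bases, far above Pcp2 with the same percentage. Tph1 had 0.391 with 64.8%. Alas2 was listed at 0 with 7.12% unshared bases, and Adcy7 had 0.0722 with 4.97%. Nr4a2 had 4.25 with 13.3%, Gnal 12.7 with 62.3%, Gnao1 3179 with 90.3% and Rgs9 20418 with 55.1%. Some of these genes differed widely at similar percentages, while the median over all genes with 2 paired transcripts rose with the percentage. The part of the unshared bases in these values was not tested. Of the 100 list genes in the table, 6 of the 17 with 2 or more transcripts and 10 of the 83 with 1 had a mean normalized count under 1. The 6 include Ddc and Aanat, whose values near 0 were known when transcripts were counted. The comparison is therefore not independent of those values. The list genes were not chosen for this comparison, and no test was made.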
